A study of Homo sapiens with 10 samples.

Results

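The ERK pathway feedback genes analysed here were DUSP4, DUSP5, DUSP6, SPRY1, SPRY2, SPRY4, SPRED1, SPRED2, ETV4 and ETV5. These 10 of the 62656 listed genes were chosen by name, as transcripts that follow ERK activity downstream of the EGF receptor, and not by their values. Earlier results of these data were known when they were chosen. The data came from PC3, a human prostate cancer cell line of epithelial origin established from a bone metastasis. Cells were starved overnight and then kept for 24 h in RPMI-1640 with 2 mM L-glutamine, with either 1 µM of GW3965, a synthetic agonist of the liver X receptors (LXRs), or DMSO, its vehicle. RNA was sequenced in 5 libraries per condition, all of this 1 cell line and 1 time point, and no time series or protein measurement was analysed here. Because AREG, which encodes the EGF receptor ligand amphiregulin, is a gene of interest in this experiment, the comparison asks whether transcripts downstream of that receptor differed between the conditions.

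EGF receptor signaling passes through RAS, RAF and MEK to the ERK kinases, which enter the nucleus and switch on a set of genes. Several of these genes encode inhibitors of the same chain, so their transcripts are widely read as a footprint of ERK activity. Dual-specificity phosphatases (DUSPs) remove phosphates from ERK and related kinases, Sprouty (SPRY) and SPRED proteins act on the chain at the level of RAS and RAF, and ETV4 and ETV5 are ETS family transcription factors whose transcripts depend on ERK.

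Whole reads could be recovered from the deposited RPKM (reads divided by gene length and by a factor for each library), and library totals lay between 30431808 and 41639081 reads. Of the 20402 genes that reached 0.5 RPKM on average, 32 passed an adjusted p of 0.05 in limma, 30 higher and 2 lower with GW3965. The agonist's reference targets were all higher, from a log2 fold change of 0.74 for SREBF1 to 2.29 for ABCA1, the cholesterol exporter. The epithelial keratins KRT8, KRT18 and KRT19 had means of 36.6, 49.6 and 149 RPKM, while EPCAM was at 1.73 and CDH1, which encodes E-cadherin, at 0.285 RPKM. KLK3, which encodes PSA, was at 0 in every library. Of the 4 markers of other cell types, the leukocyte marker PTPRC and the fibroblast markers LUM and DCN were at or below 0.122 RPKM in every library, and the endothelial marker PECAM1 lay between 0.409 and 0.760 RPKM. DMSO library 1 and GW3965 libraries 1 and 2 had stood apart in an earlier analysis of these data, so results are also given without these 3 libraries.

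All 10 feedback genes were well expressed and none passed the test for a change with GW3965. Mean levels over both conditions ran from 7.82 RPKM for SPRY2 to 61.7 RPKM for DUSP4, which placed the members between the 73.6 and the 96.5 percentile of the tested genes. DUSP4 was followed by ETV4 at 51.5, SPRY4 at 51.5 and DUSP5 at 48.7 RPKM, and these 3 could not be ordered, since each lay above the next in 5 of 10 libraries. SPRED2 at 25.2 and DUSP6 at 24.9 RPKM also exchanged places, in 5 of 10 libraries. ETV5 at 18.7 RPKM lay above SPRED1 at 17.1 in 8 of 10 libraries, and SPRY1 at 9.22 lay above SPRY2 at 7.82 in 9 of 10. The gaps below DUSP5 and below SPRED1 were the clean steps of this order, with no overlap of the libraries' ranges.

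Against the vehicle, 4 members were higher and 6 lower with GW3965. Their median log2 fold change was -0.019, where that of all tested genes was 0.0034. None of the 10 passed the adjusted threshold in limma, which 0.157% of all tested genes did, and limma's voom on the recovered reads also called 0. No member had an unadjusted p under 0.05 in limma, against 6.99% of all tested genes. Among 22 alternative settings, DUSP6 had one in 5, SPRED1 in 3 and DUSP5 in 2. The libraries of both conditions overlapped for every member, whereas 1.84% of tested genes showed no overlap. The adjusted p-values of the members lay between 0.736 for DUSP6 and 0.988 for ETV5. Since no source says that the libraries came from separate cultures, these p-values measure the spread between libraries, which may be technical.

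**Figure D1:**
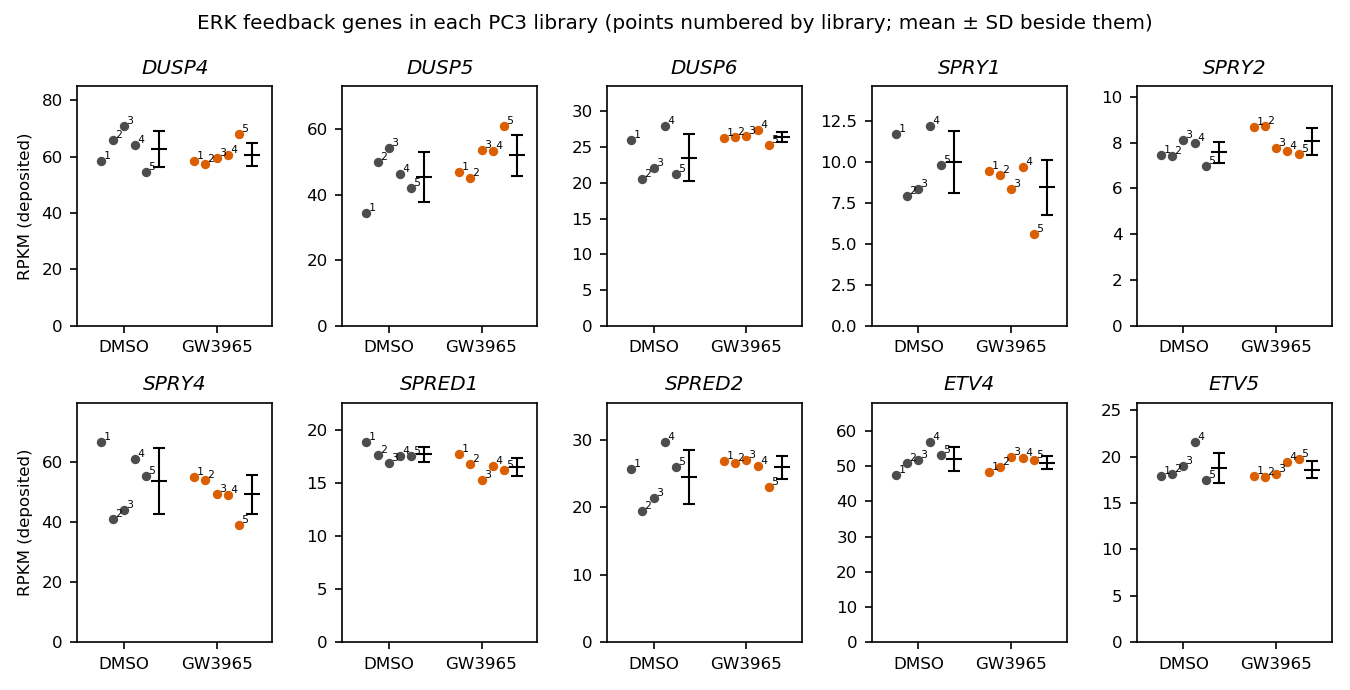
RPKM of each ERK feedback gene in the 5 DMSO and 5 GW3965 libraries, numbered by library, with the mean and SD of each condition beside the points and axes starting at 0. The conditions overlap in all 10 genes, and the GW3965 points of DUSP6 are close together between 25.3 and 27.4 RPKM while its DMSO points run from 20.5 to 27.9 RPKM.

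Among the phosphatases, DUSP6, the cytoplasmic phosphatase specific for ERK, came nearest to the threshold. The gene lies on chromosome 12 (chr12:89347232-89353271, minus strand, GRCh38 in GENCODE 29). With DMSO, its level was 25.9, 20.5, 22.0, 27.9 and 21.2 RPKM in libraries 1 to 5, and with GW3965 it was 26.2, 26.4, 26.6, 27.4 and 25.3 RPKM. All GW3965 libraries thus lay inside the range of the vehicle, above its 3 lowest libraries and below DMSO library 4. The means were 23.5 ± 3.23 RPKM with DMSO and 26.4 ± 0.749 RPKM with GW3965 (SD, n = 5 each), a log2 fold change of 0.18 with a 95% interval from -0.01 to 0.36 and an adjusted p of 0.736. The exact permutation test of the difference in means gave p = 0.127 (two-sided). Without DMSO library 4, the highest of the vehicle, that exact p was 0.0159 and the limma log2 fold change 0.24, with an adjusted p of 0.333. Without the 3 libraries that stood apart, it was 0.21, with an adjusted p of 0.560. Of the exonic bases of DUSP6, 40.5% are shared with AC024909.2, an annotated antisense gene at 0.815 to 1.07 RPKM. The library kit keeps strand, but whether the counting used it is not stated, so reads of the pair may not be separated.

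DUSP5, a nuclear phosphatase that binds ERK, had the highest fold change of the members. Its level was 34.4, 50.1, 54.1, 46.4 and 42.0 RPKM in DMSO libraries 1 to 5 and 47.0, 45.2, 53.7, 53.2 and 60.9 RPKM in the GW3965 libraries. One GW3965 library exceeded the highest DMSO library, and 1 DMSO library, the first, lay well below all others. The means of 45.4 ± 7.61 and 52.0 ± 6.23 RPKM gave a log2 fold change of 0.20 (95% interval -0.07 to 0.48, adjusted p = 0.817) and an exact permutation p of 0.183. Without DMSO library 1 the log2 fold change of DUSP5 was 0.11, below the 0.21 of DUSP6 under the same omission. Without the 3 libraries that stood apart, the DUSP5 difference was 0.22 on the log2 scale, with an adjusted p of 0.493.

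DUSP4, the other nuclear phosphatase, was the member with the highest level and showed no comparable difference. It read 58.3, 65.7, 70.9, 64.0 and 54.6 RPKM with DMSO and 58.4, 57.4, 59.5, 60.5 and 67.9 RPKM with GW3965. The GW3965 values fell inside the DMSO range, with means of 62.7 ± 6.38 and 60.7 ± 4.16 RPKM and a log2 fold change of -0.04 (95% interval -0.21 to 0.13). In the exact permutation test p was 0.563. DUSP4 rested on 12860 to 20267 reads per library, the most of any member.

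Of the Sprouty genes, SPRY1 on chromosome 4 had the largest fold change of the members in size and one of the widest spreads. Its level was 11.7, 7.93, 8.33, 12.2 and 9.83 RPKM with DMSO and 9.46, 9.17, 8.32, 9.68 and 5.61 RPKM with GW3965. GW3965 library 5 was the lowest of all 10 and the other 4 lay inside the DMSO range. Means of 9.99 ± 1.92 and 8.45 ± 1.67 RPKM gave a log2 fold change of -0.24, with an interval from -0.61 to 0.12 and an adjusted p of 0.849 (exact permutation p = 0.214). Without GW3965 library 5 the log2 fold change of SPRY1 was -0.11. This interval was the widest of the members. SPRY1 rested on 721 to 1838 reads per library.

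SPRY4, on chromosome 5, was about as variable as SPRY1 at a several times higher level. It read 66.5, 41.0, 44.2, 61.2 and 55.5 RPKM with DMSO and 54.9, 54.1, 49.4, 48.9 and 38.9 RPKM with GW3965. DMSO libraries 2 and 3 and GW3965 library 5 were the lowest in this gene and were also among the lower ones in SPRY1. The means were 53.7 ± 10.9 and 49.3 ± 6.38 RPKM, with a log2 fold change of -0.11 (95% interval -0.42 to 0.21) and an exact permutation p of 0.468. This value rested on single libraries, at -0.026 without DMSO library 1, -0.027 without GW3965 library 5, -0.056 without DMSO library 4, -0.17 without DMSO library 3 and -0.20 without DMSO library 2. SPRY2, in contrast, was steady and low, from 6.97 to 8.10 RPKM with DMSO and from 7.51 to 8.72 RPKM with GW3965. Its difference of 0.09 on the log2 scale had an interval from -0.06 to 0.23, and its exact permutation p was 0.206. Without the 3 libraries that stood apart, the log2 fold change of SPRY2 was 0.0051. It rested on 726 to 1120 reads per library, fewer than SPRY1 had in most libraries.

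The SPRED genes encode Sprouty-related proteins that bring the RAS-inactivating protein neurofibromin to the membrane. SPRED1, on chromosome 15 (chr15:38252326-38357249, plus strand), was the member whose conditions came closest to separating. It stood at 18.8, 17.6, 16.9, 17.5 and 17.5 RPKM with DMSO and at 17.7, 16.7, 15.3, 16.6 and 16.2 RPKM with GW3965. Of the GW3965 libraries, 4 of 5 lay below the lowest vehicle library, and library 1 lay above 4 vehicle libraries. Means of 17.7 ± 0.691 and 16.5 ± 0.861 RPKM gave a log2 fold change of -0.10 (95% interval -0.22 to 0.02, limma adjusted p = 0.784). The exact permutation test gave p = 0.0397, before any correction, where the smallest p that 5 against 5 libraries allow is 0.00794. SPRED1 was the only member under 0.05 in that test, whose share over all genes was not computed. In limma, 6.99% of all tested genes had an unadjusted p under 0.05. Without DMSO library 1, the highest of its condition, the exact p was 0.0714, and without GW3965 library 1 it was 0.0159 with no overlap left. Without the 3 libraries that stood apart, the conditions did not overlap in SPRED1. The exact p was 0.0286, the smallest that the libraries left allow. These 3 include GW3965 library 1, the only GW3965 library that had overlapped the vehicle, so the separation follows from the omission. The share of all genes without overlap was not computed with libraries left out. Without the 3 libraries, the log2 fold change was -0.12 (limma adjusted p = 0.523).

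SPRED2, on chromosome 2, stood at 25.7, 19.5, 21.4, 29.6 and 26.1 RPKM with DMSO and at 26.9, 26.6, 27.1, 26.2 and 23.0 RPKM with GW3965. The vehicle libraries enclosed all GW3965 libraries. The means were 24.5 ± 4.01 and 26.0 ± 1.67 RPKM and the log2 fold change 0.10 (95% interval -0.14 to 0.33, exact permutation p = 0.460). It was 0.021 without DMSO library 2, 0.054 without DMSO library 3 and 0.17 without DMSO library 4. Its pattern over libraries was that of SPRY1 and SPRY4, with DMSO libraries 2 and 3 and GW3965 library 5 lowest.

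The upstream sequences of SPRY1 and SPRED2 are shown because the levels of this pair were similar in course between libraries. That relation did not pass adjustment and was not the closest, since SPRY4 had a higher r with SPRY1 and with SPRED2, as described further on. Promoter windows of RefSeq (GRCh38.p14, from 250 bases before to 50 bases after a transcript start) were found for 6 of the 10 members, DUSP6, SPRY1, SPRY2, SPRY4, SPRED1 and SPRED2. The stretches below precede the outermost start and hold no exonic base of GENCODE 29. They are chr4:123396545-123396794 on the plus strand for SPRY1 and chr2:65432638-65432849 on the minus strand for SPRED2, written 5′ to 3′, with capitals marking GGAA, the core bound by ETS factors, or its complement TTCC.
SPRY1: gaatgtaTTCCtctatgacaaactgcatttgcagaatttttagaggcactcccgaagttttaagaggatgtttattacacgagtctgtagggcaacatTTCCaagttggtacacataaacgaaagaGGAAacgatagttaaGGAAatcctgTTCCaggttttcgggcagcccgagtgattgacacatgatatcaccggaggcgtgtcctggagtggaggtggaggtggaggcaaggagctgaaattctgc
SPRED2: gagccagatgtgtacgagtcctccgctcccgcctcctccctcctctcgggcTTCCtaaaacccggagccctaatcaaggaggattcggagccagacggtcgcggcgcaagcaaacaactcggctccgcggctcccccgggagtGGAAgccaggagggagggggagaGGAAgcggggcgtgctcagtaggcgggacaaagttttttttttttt

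The SPRY1 stretch of 250 bases held 5 such cores at a GC content of 45.6%, and the SPRED2 stretch of 212 bases held 3 at 61.8%. Over the whole windows of 300 bases, the 6 members held between 3 and 6 cores on either strand. GGAA stood in 95.5% of all 35116 promoter windows, so its presence does not set the members apart. The longer ETS motif CCGGAA, which contains GGAA, occurred once, in SPRY2, and in 17.2% of all windows. The AP-1 motif TGANTCA (7.71% of windows) was found in no member window, and the CRE-type motif TGACG (24.6%) was found once each in SPRY2, SPRY4 and SPRED2. The DR4 element bound by LXR, searched as a repeat of AGGTCA spaced by 4 bases, was in 0 of the 6 windows and in 7 of all 35116. Motifs were searched on both strands and say nothing on binding in these cells.

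ETV4 and ETV5 had the smallest fold changes of the members. ETV4, at 47.4 to 56.7 RPKM with DMSO and 48.4 to 52.5 RPKM with GW3965, had a log2 fold change of -0.025 (95% interval -0.15 to 0.10, exact permutation p = 0.619). ETV5, at 17.4 to 21.5 RPKM with DMSO and 17.8 to 19.7 RPKM with GW3965, had one of -0.013 (95% interval -0.16 to 0.13, exact permutation p = 0.889). For both genes a change of more than 0.16 on the log2 scale in either direction lay outside the interval. Small stretches of their exons, 1.89% for ETV4 and 2.83% for ETV5, are shared with DHX8 on the opposite strand and with DGKG on the same strand.

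**Figure D2:**
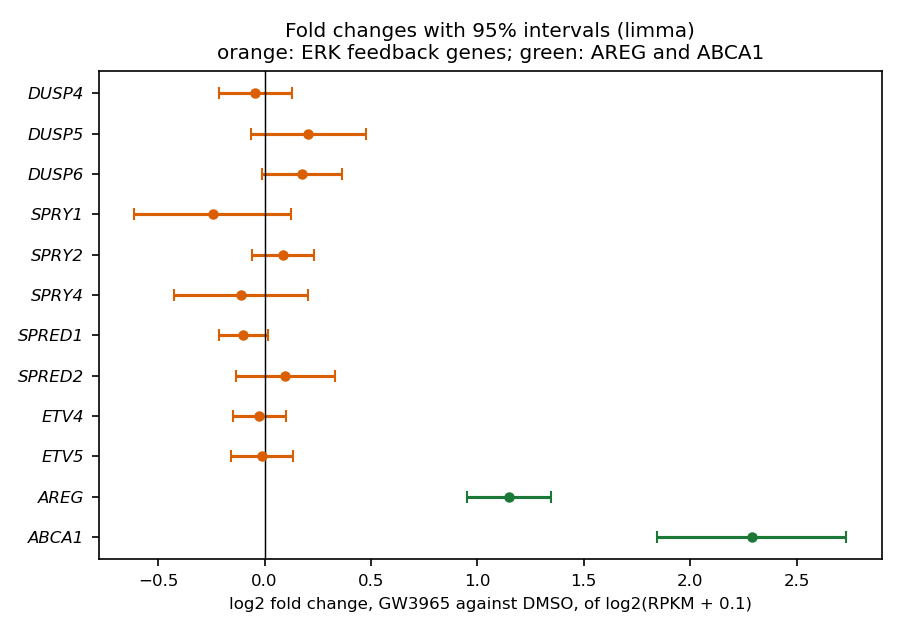
Log2 fold change of GW3965 against DMSO on the log2(RPKM + 0.1) scale for the 10 feedback genes (orange) and for AREG and ABCA1 (green), with 95% intervals from limma. The interval of every feedback gene includes 0, and the highest upper end, 0.48 for DUSP5, lies below the interval of AREG, which starts at 0.95.

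Several members varied between libraries of 1 condition by far more than read counting allows. Over counting error, the variance of SPRY4 was 509 times higher among the DMSO libraries and 194 times higher among the GW3965 libraries, and that of SPRED2 was 127 and 21.2 times higher. SPRY2 and SPRED1 were at 3.16 and 7.35 times with DMSO and at 5.02 and 12.4 times with GW3965, where the medians of all tested genes were 4.67 and 3.82. This ratio grows with the number of reads, and DUSP4, with the most reads, stood at 166 and 73.8. On the log2 scale, the residual SD was 0.30 for SPRY1, 0.25 for SPRY4, 0.22 for DUSP5 and 0.183 for SPRED2, where the median of all tested genes, many of them at lower levels, was 0.181. The other 6 members lay below that median, from 0.066 for SPRED1 to 0.14 for DUSP6. The coefficient of variation, which does not carry the read number, was highest for SPRY4 and SPRY1 with DMSO (20.3% and 19.2%) and for SPRY1 with GW3965 (19.7%). It was 13.7% with DMSO and 2.84% with GW3965 for DUSP6, and 16.4% and 6.44% for SPRED2, and the difference between the conditions in spread was not tested.

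Some pairs of members had similar deviations, although none passed adjustment over all pairs. After removal of each condition's mean, SPRY1 and SPRY4 went together over the 10 libraries (r = 0.91, permutation p = 0.00264, adjusted p = 0.0667 over 45 pairs). Spearman's rho for this pair was 0.84 (adjusted permutation p = 0.118), and r was 0.85 without the 2 libraries farthest from the median of SPRY1. A similar course was seen for SPRY4 and SPRED2 (r = 0.88, adjusted permutation p = 0.0771) and for SPRY1 and SPRED2 (r = 0.82, adjusted permutation p = 0.0667). The latter is the pair whose upstream sequences are given above. Spearman's rho was 0.83 for SPRY4 and SPRED2 (adjusted permutation p = 0.118) and 0.67 for SPRY1 and SPRED2 (adjusted permutation p = 0.312). For each of these pairs, r was 0.75 without the 2 farthest libraries. DUSP4 and DUSP5, the nuclear phosphatases, formed a second pair with r = 0.83 (adjusted permutation p = 0.0771) and rho = 0.89 (adjusted permutation p = 0.0813), and r was 0.90 without the 2 farthest libraries.

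The lowest correlation was between these sets, for DUSP5 and SPRY4 (r = -0.86, permutation p = 0.00361, adjusted p = 0.0667), with rho = -0.79 (adjusted permutation p = 0.118) and r = -0.82 without the 2 farthest libraries. In DMSO library 1, for instance, SPRY4 lay 0.33 above and DUSP5 0.38 below its condition's mean on the log2 scale. In DMSO library 3 and in GW3965 library 5 the signs were turned, with SPRY4 0.26 and 0.33 lower and DUSP5 0.27 and 0.24 higher. In all, 28 of 45 pairs had r above 0 and 17 below, and none passed an adjusted p of 0.05. Of the values scaled by quantile normalization, 7 pairs passed by r, among them SPRY1 with SPRY4, SPRED2 and DUSP6. DUSP5 with SPRY1 and with SPRY4 also passed by r, in the opposite direction. By rho these DUSP5 pairs did not pass (adjusted permutation p = 0.0924 with SPRY1 and 0.172 with SPRY4). All these relations share the same 10 libraries and their scaling factors.

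**Figure D3:**
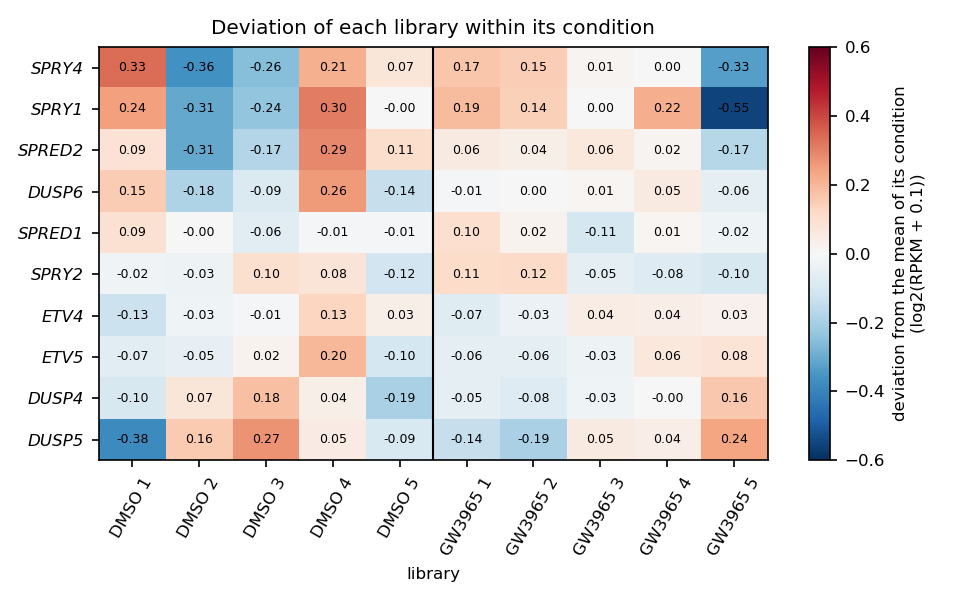
Deviation of each of the 10 libraries from the mean of its condition for every feedback gene, in log2(RPKM + 0.1), with red above and blue below the mean and the vertical line dividing DMSO from GW3965. SPRY4, SPRY1 and SPRED2 are low together in DMSO libraries 2 and 3 and GW3965 library 5, where DUSP4 and DUSP5 are high. ETV4, SPRY2 and SPRED1 stay paler, at most 0.13 from the mean in either direction, while ETV5 reaches 0.20 in DMSO library 4.

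The library total and the share of 7SL RNA, as library properties, and the level of the AREG gene were set beside the members. This gave 30 relations, after removal of condition means. None passed an adjusted p of 0.05, the lowest being 0.351. For the library total, r lay between -0.36 for SPRED1 and 0.37 for ETV4. For the share of 7SL RNA, it lay between -0.67 for SPRED1 (permutation p = 0.0649, adjusted p = 0.351) and 0.45 for ETV4 (permutation p = 0.145, adjusted p = 0.545). The SPRED1 value was -0.085 without the 2 farthest libraries and its rho was -0.65 (adjusted permutation p = 0.403). With the 7SL share as a covariate, the log2 fold change of SPRED1 was -0.13 (limma adjusted p = 0.713). For AREG, r lay between -0.59 for DUSP5 (permutation p = 0.0664, adjusted p = 0.351) and 0.81 for SPRY1 (permutation p = 0.0296, adjusted p = 0.351). The rho of SPRY1 was 0.70 (adjusted permutation p = 0.403), and r was 0.42 without the 2 farthest libraries, so the relation rests on those 2. SPRY4 was similar, with r = 0.67 (permutation p = 0.0304, adjusted p = 0.351), rho = 0.71 (adjusted permutation p = 0.403) and r = 0.34 without the 2 farthest libraries. The part of the library properties and of AREG in the members' values was not tested further.

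Relatives of the members and the rest of the pathway gave few calls. The list of 10 relatives held 8 tested genes, all with fold changes below 0 and none past the threshold, from -0.26 for DUSP10, a phosphatase of the stress kinases, to -0.0029 for ETV1. Their median was -0.06, and every one of the 8 had libraries that overlapped between conditions. DUSP1, an immediate early phosphatase, was at 5.59 ± 0.681 RPKM with DMSO and 5.47 ± 0.578 RPKM with GW3965. DUSP2 and SPRY3 lay under the limit of 0.5 RPKM.

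Other transcripts that respond to ERK were mixed in direction. Of 10 genes, 8 were tested, 5 were higher and 3 lower, and 0 passed the adjusted threshold. The list's median was 0.04 on the log2 scale. PHLDA1, a gene induced by ERK, had the lowest adjusted p of this list (0.248). Its level was 35.1, 34.6, 33.9, 37.8 and 32.0 RPKM with DMSO and 40.8, 40.0, 38.4, 39.9 and 41.1 RPKM with GW3965, and the ranges of the conditions did not meet. The log2 fold change was 0.21 ± 0.05 (SE). IER3, an early response gene, went the other way, at 38.8, 47.3, 52.3, 41.8 and 37.1 RPKM with DMSO and 36.4, 36.0, 36.4, 37.0 and 36.9 RPKM with GW3965. Its log2 fold change was -0.24 ± 0.09 (SE, adjusted p = 0.567), again without overlap, although the lowest DMSO library and the highest GW3965 library almost touched. Thus 2 of the 8 tested genes showed no overlap, against 1.84% of all tested genes. The exact permutation p was 0.00794 for both, unadjusted, the smallest that 5 against 5 libraries allow. Unadjusted limma p-values were 0.0024 for PHLDA1 and 0.020 for IER3, where 6.99% of all tested genes were under 0.05.

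The further ERK output genes overlapped between the conditions over all 10 libraries. EPHA2, a receptor tyrosine kinase, stood at 132 ± 10.9 and 129 ± 8.95 RPKM, and CCND1, which encodes cyclin D1, at 134 ± 12.4 and 137 ± 12.5 RPKM (DMSO, then GW3965). FOSL1, an AP-1 subunit, stood at 92.4 ± 13.5 and 101 ± 18.8 RPKM. Its lowest values were 69.3 RPKM in DMSO library 1 and 79.6 and 82.0 RPKM in GW3965 libraries 1 and 2, the 3 libraries that stood apart. Without them, FOSL1 ran from 95.2 to 105 RPKM with DMSO and from 109 to 120 RPKM with GW3965, with no overlap. The share of all genes without overlap was not computed with these libraries left out. The immediate early genes EGR1 and FOS were near 0 in both conditions, with means of at most 0.0658 RPKM.

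The receptor and the kinase chain were tested for all 23 listed genes, of which 12 were higher, 11 lower and 0 past the threshold, and the list's median was 0.03 on the log2 scale. The ends of this list were SOS2, a RAS exchange factor, at 0.18 and RPS6KA1, a kinase downstream of ERK, at -0.12. EGFR, the receptor itself, was at 7.40 ± 0.593 RPKM with DMSO and 7.81 ± 0.838 RPKM with GW3965. Fold changes on the log2 scale were 0.11 for NRAS, 0.03 for HRAS and 0.06 for BRAF. MAPK3, which encodes the kinase ERK1, was at -0.0087.

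Of 9 other inhibitors of the chain, 8 were tested, 4 in each direction and 0 past the threshold. They ran from DAB2IP, a RAS GTPase-activating protein, at -0.10 to ERRFI1 at 0.27 on the log2 scale (adjusted p = 0.729), the latter a feedback inhibitor that binds the EGF receptor. LRIG1 lay under the limit.

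The ligands of the EGF receptor were the one list of the pathway with a call. All 5 tested ligands had fold changes above 0, with a median of 0.34, and 1 passed the adjusted threshold. This list was drawn up when the largest changes of these data were known, so its direction is not independent evidence. AREG stood at 5.56, 5.32, 4.79, 5.68 and 4.83 RPKM with DMSO and at 12.2, 13.0, 12.3, 11.9 and 9.45 RPKM with GW3965. It was higher in all GW3965 libraries. The log2 fold change was 1.15 ± 0.09 (SE, adjusted p = 0.00021). TGFA and BTC, chosen here after their values were seen, had log2 fold changes of 0.34 and 0.38 with adjusted p-values of 0.551 and 0.580. EPGN, at the low end, was at 0.01, and EREG and EGF lay under the limit of 0.5 RPKM. The feedback genes were therefore read in cells whose AREG transcript had more than doubled. In bulk RNA, a change of level in each cell cannot be told apart from a change in the number of expressing cells.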

How the data were processed

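Total RNA of PC3 cells, depleted of ribosomal RNA by the stated protocol (the sample records name polyA RNA), was sequenced as single reads of 50 bases in 5 DMSO and 5 GW3965 libraries. The submitters' processing notes name bcl2fastq 2.20.0.422, cutadapt, HISAT2 2.1.0, HTSeq 0.11.2, DESeq2 1.22.2 and hg38. The methods name the mouse genome, and the identifiers are human. The authors deposited RPKM of 62656 genes, of which 15119 were 0 throughout, scaled by median-of-ratios size factors and not by library totals. Of the values above 0, 100% came out as whole reads (tolerance 0.01). Each gene's length was chosen so that its reads were whole, so this share is no independent check. The length equaled that of GENCODE 29 for 16720 of 44230 compared genes.

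Libraries were grouped by their titles. The log2(RPKM + 0.1) of genes that reached 0.5 RPKM on average was tested with limma 3.58.1 in R 4.3.3 (trend, two-sided, Benjamini-Hochberg over 20402 genes, threshold 0.05), since the methods state no test for single genes. Single RPKM values were compared by exact permutation over 252 labellings, and deviations were correlated with 14400 permutations within conditions. Ratios to read counting cover counting error only. The procedure was tested on simulated data. Alternatives were other pseudocounts, filters, scalings and weights, voom, a 7SL RNA covariate, the replicate block and libraries left out. The loss of libraries in the exact tests, and of 3 libraries together in the exact tests, overlaps and correlations, was added after the data were seen.

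The members and lists were chosen with earlier results of these data known. Named were all members, list genes past the threshold, the ends of each list, the correlation extremes and a fixed set of pathway genes (EGFR, NRAS, HRAS, BRAF, MAPK3, EGR1, FOS, FOSL1, CCND1, PHLDA1, EPHA2, DUSP1, ETV1, AREG, ABCA1 and ABCG1, the last at a log2 fold change of 2.13). Some results that the rule would name are not reported here.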

Additional observations from a re-analysis of the deposited data

Results flagged for a closer look

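In 50 groups of 5 libraries, 1 library's gap to its nearest neighbour was compared with the group's whole range, and a share above 0.71 marked a library far from the others. There were 5 such groups, where chance gives about 1 in 20, or 2.5, and 2 of them were among the 20 groups of feedback genes.

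SPRY1 was lowest in GW3965 library 5, at 5.61 RPKM against 8.32 to 9.68 RPKM in the other 4, a gap of 0.721 of the range. SPRED2 was lowest in the same library, at 23.0 RPKM against 26.2 to 27.1 RPKM (0.802). AREG was also lowest there, at 9.45 RPKM against 11.9 to 13.0 RPKM (0.721). That library had 31898339 reads and a 7SL RNA share of 4.44%, both inside the range of the other libraries. It had the fewest genes above 0 of all 10 libraries, 36810 against 37203 in the next lowest. The part of this library in the pattern was not tested beyond leaving it out.

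In the vehicle, FOSL1 was lowest in DMSO library 1, at 69.3 RPKM against 95.2 to 105 RPKM (0.763), and ETV1 was highest in the same library, at 4.51 RPKM against 3.31 to 3.54 RPKM (0.786).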

How the results depend on the processing

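In 22 alternatives to the limma test, 0 of 10 feedback genes passed the adjusted threshold, and the lowest adjusted p of a member was 0.241, for DUSP6 with array quality weights. DUSP5, DUSP6, SPRY1, SPRY2, SPRY4, SPRED1 and SPRED2 kept the sign of their fold change in all 22, DUSP5 between 0.11 and 0.27, DUSP6 between 0.13 and 0.25 and SPRY1 between -0.32 and -0.11. Signs turned for fold changes near 0. ETV5 was at 0.023 with array weights, 0.0020 with voom, 0.0091 without the 3 libraries that stood apart, and between -0.039 and 0.037 with 1 library left out, turning without DMSO 4, GW3965 1 or GW3965 2. DUSP4 lay between -0.091 and 0.0029, turning without DMSO 3, and ETV4 between -0.057 and 0.0075, turning without DMSO 4. The members' median was 0.011 with array weights and 0.022 without DMSO 4.

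Over all genes, the 32 calls became 21 with no filter, 20 without a trend, 56 with array weights, 16 with the replicate block, 18 without the 3 libraries, and 17 to 38 with 1 library left out, the fewest without GW3965 2 or GW3965 4. Replicate numbers did not pair the libraries (correlations of same-numbered libraries 0.149, -0.0488, 0.0386, 0.160 and -0.138, and 3 of 10 libraries correlated best with their own number), and the block called 0 members. The exact test, unadjusted, called 1 member (SPRED1), and 0 to 1 with 1 library left out. Its share over all genes was not computed, while 6.99% of all tested genes had an unadjusted limma p under 0.05. The exact test kept SPRED1 without DMSO 3 or GW3965 1, called DUSP6 in its place without DMSO 4, and called 0 without any other library. The count of members without overlap was 0, and 0 to 1 with 1 library left out and 1 without the 3 libraries. It was SPRED1 each time, with GW3965 1 among the libraries left out. The share of all genes without overlap was not computed in these settings. Pairs correlated by r numbered 0, then 7 with quantile normalization and 0 to 1 with 1 library left out. The latter were DUSP4 with DUSP5 without DMSO 1 or DMSO 5, DUSP4 with ETV5 without DMSO 4, and SPRY1 with SPRY4 without GW3965 4. The cause of these differences was not tested. With 5 libraries a condition, the intervals of the members reach from -0.61 to 0.48, the ends set by SPRY1 and DUSP5, and the narrowest intervals are those of SPRED1 (-0.22 to 0.02) and ETV4 (-0.15 to 0.10).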
